A study of Mus musculus with 11 samples.

Results

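Traced Sca-1+ tdT+ cells of mouse dorsal epidermis were compared with untraced Sca-1neg tdT- cells, the population in which bulge stem cells of the hair follicle are sorted. The 6 libraries compared, 3 per group, were chosen by their labels from the 11 of the series. All mice of both groups were male CD4Cre R26-tdT animals on a C57Bl6/N background, in which Cre under the CD4 promoter switches on the red fluorescent tracer tdT in a cell and its progeny. Every library pools 2 mice, aged 29 weeks for replicate 1 and 32 weeks for replicates 2 and 3 in both groups. Cells were freed from skin with thermolysin and sorted by FACS as CD49f+ CD34+, then as Sca-1+ tdT+ or as Sca-1neg without tdT. The groups therefore differ in Sca-1 and in tdT together, and the part of each cannot be told apart by this comparison. Nothing in the labels says whether the pools shared animals, so p-values measure the spread between these libraries.

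The bulge is the part of the outer root sheath where slow-cycling stem cells of the hair follicle reside. Its cells are known for the surface protein CD34, for transcription factors such as Lhx2, Sox9 and Tcf7l1, and for secreted inhibitors of Wnt signalling. Sca-1, encoded by Ly6a, is found on interfollicular and upper-follicle keratinocytes, and also on lymphocytes and endothelial cells. Mouse epidermis also holds resident T cells, most of them dendritic epidermal gamma-delta T cells. Developing T cells pass through a stage with CD4, so a CD4-driven Cre is known to mark most alpha-beta T cells, whether or not they keep CD4.

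Total counts ran from 17409131 to 36593970 in Sca-1+ tdT+ and from 39364902 to 46542177 in Sca-1neg tdT-. Sca-1neg tdT- replicate 2 stood apart: albumin (Alb), a secreted protein of the liver, was at 6194 CPM there (read counts relative to library size, scaled by TMM over the 6 libraries) and at 3.01 to 18.9 CPM in the other 5. The summed level of the 20 liver genes was 23216 CPM in that library and 16 to 74 CPM in the other 5. Xist, which coats the inactive X chromosome, was at 214 CPM there and at 0.401 to 1.27 CPM elsewhere, and the Y-linked Ddx3y at 62.4 against 125 to 155 CPM, although the mice are labelled male. The part of this library in each result was measured by leaving it out, and the values without it stand beside the list counts that moved by over 1.5 times and the genes described that lost a call.

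Of 17818 genes tested, 3593 passed an adjusted p of 0.05, which is 20.2% of the genes. Higher in Sca-1+ tdT+ were 1672 genes (9.38% of those tested) with a median log2 fold change of 1.82, and lower were 1921 (10.8%) with a median of -1.76. At least 4-fold differences were held by 772 of the higher and 849 of the lower genes. The libraries of the groups did not overlap for any called gene, while over all genes tested they did not overlap for 40.8%. The higher genes made up 19.5% to 20.6% of all counts in Sca-1+ tdT+ libraries and 7.76% to 9.41% in those of Sca-1neg tdT-. For the lower genes the shares were 7.18% to 7.63% and 17.9% to 22.0%. The count fell to 2067 without Sca-1neg tdT- replicate 3 and to 2163 without replicate 1 of that group, and was 3228 without replicate 2.

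**Figure D1:**
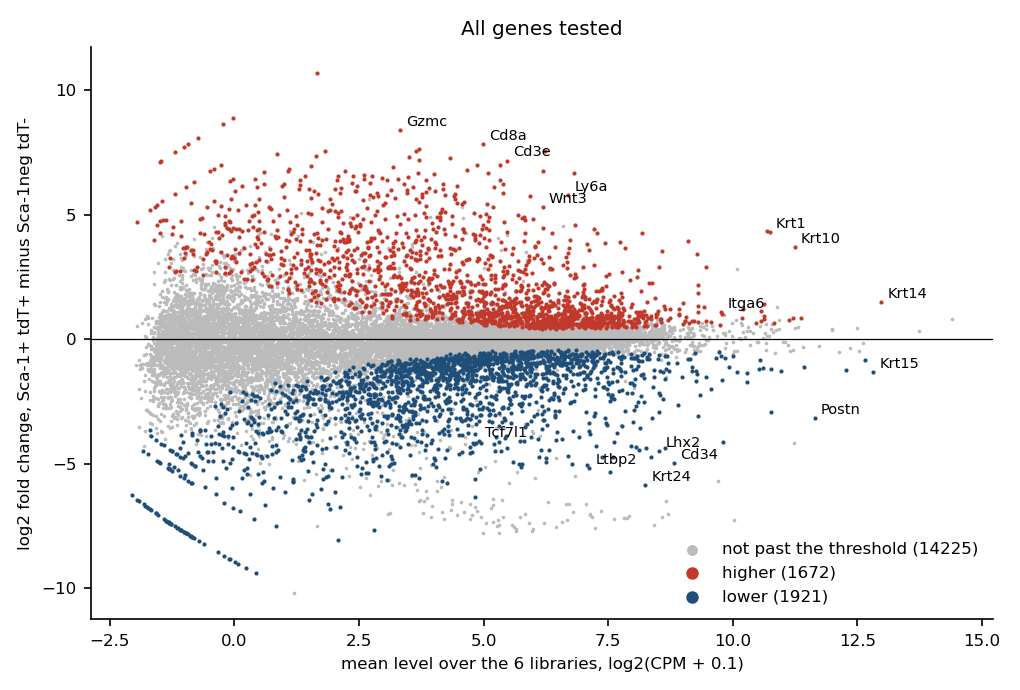
Each point is 1 of the 17818 genes tested, with its mean level over the 6 libraries as log2(CPM + 0.1) on the x axis and its log2 fold change, Sca-1+ tdT+ minus Sca-1neg tdT-, on the y axis. Red points are the 1672 genes higher in Sca-1+ tdT+ and blue points the 1921 lower genes, with the T cell genes Gzmc, Cd8a and Cd3e near the top and the bulge genes Cd34, Lhx2 and Krt24 near the bottom; fitted values of genes with almost no count in a group, seen as slanted lines at the left, depend on the prior count, and the grey points near the bottom centre include the liver genes of Sca-1neg tdT- replicate 2.

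The transcripts of the sort markers were examined first. Ly6a was at 158, 298 and 155 CPM in Sca-1+ tdT+ replicates 1 to 3 and at 5.69, 2.50 and 2.89 CPM in Sca-1neg tdT-. The tracer, the 1 entry of the files outside the gene annotation, was at 254, 224 and 307 CPM of the unscaled total against 3.78, 2.54 and 2.80 CPM, with exact Clopper-Pearson 95% intervals of 249 to 259, 217 to 231 and 300 to 315 in the traced libraries. Both transcripts stood at the labelled level in all 6 libraries, and since they or their proteins defined the groups they are no finding.

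Cd34 went against the shared gate at the RNA level. It was at 24.3, 36.1 and 22.6 CPM in Sca-1+ tdT+ against 856, 648 and 1125 CPM in Sca-1neg tdT-, a log2 fold change of -4.98 with a standard error (SE) of 0.31 and an adjusted p of 0.000125. The gene lies on chr1:194938819-194961279 (mm10, plus strand). Itga6, the gene of CD49f, differed in the other direction, with 1279, 1001 and 1275 CPM against 610, 520 and 545 CPM (1.09 ± 0.17 SE, adjusted p = 0.00368). Every Sca-1+ tdT+ library was above every Sca-1neg tdT- library for this integrin chain of basal keratinocytes. Cd4, whose promoter drives the Cre, was low in all 6 libraries, with 4.65, 4.14 and 0.888 CPM against 0.225, 0.671 and 0.291 CPM. Its difference passed the threshold (3.03 ± 0.80 SE, adjusted p = 0.0341) but not under 9 of the 16 alternatives it could be computed for.

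T cell genes were higher in Sca-1+ tdT+. Of 27 tested members of a T cell list, 25 were higher in Sca-1+ tdT+ and none was lower, with a median log2 fold change of 5.89 beside -0.03 over all genes tested. Ubash3a and Il7r did not pass, at adjusted p = 0.0637 and 0.327, and both passed without Sca-1neg tdT- replicate 2, at 0.00211 and 0.00295. There Cd28 and Cd27 did not, at 0.0575 and 0.0686, so the count was again 25. The summed level of the list was 941, 1838 and 1335 CPM in Sca-1+ tdT+ against 171, 163 and 170 CPM in Sca-1neg tdT-. Most of the sum in Sca-1neg tdT- came from Bcl11b, which keratinocytes also express. In bulk RNA, more T cells and more RNA of these genes per cell cannot be told apart. List members named below beyond the 5 with the lowest p were chosen after their values had been seen.

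The CD3 chains, which carry the signal of the T cell receptor, are encoded side by side on chromosome 9, from Cd3g (chr9:44969572-44980431) over Cd3d (chr9:44981786-44987339) to Cd3e (chr9:44998740-45009627). Cd3e was at 47.2, 119 and 96.6 CPM in Sca-1+ tdT+ against 0.655, 0.322 and 0.825 CPM in Sca-1neg tdT- (7.17 ± 0.51 SE, adjusted p = 0.000169). Cd3g was at 56.7, 275 and 119 CPM against 0.983, 0.134 and 1.21 CPM (7.57 ± 1.06 SE), and Cd3d at 13.4, 72.4 and 33.5 CPM against at most 0.291 CPM (7.29 ± 0.71 SE). Replicate 1 was the lowest and replicate 2 the highest of the Sca-1+ tdT+ libraries for all 3 chains, and no Sca-1neg tdT- library came near them.

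Both chains of the coreceptor CD8 were higher. Cd8a was at 27.7, 87.0 and 74.4 CPM in Sca-1+ tdT+ against 0.266, 0.295 and 0.267 CPM in Sca-1neg tdT- (7.82 ± 0.52 SE, adjusted p = 0.000129). Its partner chain Cd8b1 was at 10.7, 36.0 and 31.0 CPM against 0.0537 to 0.194 CPM (7.65 ± 0.67 SE). The constant region of the delta receptor chain, Trdc, was at 54.0, 94.1 and 90.9 CPM against 1.54, 0.161 and 1.07 CPM (6.41 ± 0.77 SE), and that of the alpha chain, Trac, at 15.6, 35.7 and 26.2 CPM against at most 0.328 CPM (7.18 ± 0.64 SE). Transcripts of both receptor lineages were thus present in each Sca-1+ tdT+ library. CPM are not divided by gene length, so levels of different genes are not set against each other.

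Genes of receptor signalling and of the T cell surface were higher as well. Lat, the adaptor on which the signalling cascade assembles, was at 21.3, 43.1 and 38.2 CPM against 0.655 to 1.29 CPM (5.12 ± 0.40 SE, adjusted p = 0.000232). Thy1, a surface protein of T cells, was at 173, 352 and 242 CPM and was also present in Sca-1neg tdT-, at 23.6, 18.3 and 21.7 CPM (3.59 ± 0.28 SE, adjusted p = 0.000223). Bcl11b, a transcription factor of T cells and keratinocytes, had the smallest difference of the called members, with 262 to 334 CPM against 116 to 128 CPM (1.23 ± 0.15 SE).

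Genes of cytotoxic and epidermal gamma-delta T cells were higher in 19 of 20 tested members, with a median of 6.23. Fasl did not pass in the 6 libraries, and all 20 passed without Sca-1neg tdT- replicate 2, where Fasl was at 2.36 CPM. Prf1, the pore-forming protein of killer cells, was at 25.2, 39.1 and 43.4 CPM against 0.369, 0.698 and 0.364 CPM (6.23 ± 0.40 SE, adjusted p = 0.000126). Gzmc, a granule protease, had the largest fold change of the named genes, with 7.16, 31.3 and 21.0 CPM against 0.0486 to 0.0614 CPM (8.40 ± 0.71 SE, adjusted p = 0.000278). Cd7 was at 52.5, 112 and 82.4 CPM against 0.971 to 1.29 CPM (6.24 ± 0.35 SE, adjusted p = 0.000102).

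Markers tied to residence in the epidermis were among them. Itgae, the integrin chain that binds E-cadherin on keratinocytes, was at 86.0, 175 and 171 CPM against 2.09, 1.13 and 0.753 CPM (6.75 ± 0.50 SE). Cd163l1, known from gamma-delta T cells, was at 13.2, 20.5 and 20.1 CPM against 0.0971 to 0.215 CPM (6.93 ± 0.45 SE), and Zfp683, the transcription factor Hobit of resident lymphocytes, at 5.42, 6.73 and 5.74 CPM against at most 0.107 CPM (7.34 ± 1.11 SE). Jaml, a costimulatory receptor of epidermal gamma-delta T cells, was at 9.16, 15.3 and 18.0 CPM against 0.205 to 0.267 CPM (5.87 ± 0.42 SE), and Cxcr6, a chemokine receptor whose gene overlaps Fyco1 on the other strand, at 24.9, 53.1 and 51.7 CPM against 0.403 to 0.840 CPM (6.15 ± 0.44 SE). The effector cytokine Ifng reached 3.31, 14.2 and 12.2 CPM and stayed at or below 0.268 CPM in Sca-1neg tdT- (6.26 ± 0.96 SE).

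Promoter sequence of these genes was read from RefSeq (GRCm38.p6), which held the window from 250 bases before to 50 bases after the start for 13 of the 19 called cytotoxic members. The core of the site bound by RUNX factors, TGTGGT on either strand, was found in at least 1 window of 10 of these 13 members. By window it was in 11 of their 14, beside 16.8% of all 32851 windows. It is 1 of 18 short motifs looked at and was picked after the counts were seen, so a match describes letters and is not a site. For T cell list members the count was 3 of 13 (3 of 17 windows), and for bulge members 1 of 14 (1 of 19 windows). The stretches of the 4 cytotoxic members with the lowest p that hold the motif before the start are printed with up to 50 bases on each side, ending at the start where that is nearer, in the direction of the gene, with the motif in capitals, as ACCACA where it reads on the opposite strand. They are Prf1 (chr10:61297656-61297761, plus strand), Cxcr6 (chr9:123806417-123806476, plus), Jaml (chr9:45079114-45079182, plus) and Gzmc (chr14:56234710-56234815, minus).
Prf1: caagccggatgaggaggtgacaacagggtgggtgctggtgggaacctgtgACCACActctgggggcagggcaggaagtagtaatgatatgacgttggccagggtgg
Cxcr6: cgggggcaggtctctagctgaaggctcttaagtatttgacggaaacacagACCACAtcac
Jaml: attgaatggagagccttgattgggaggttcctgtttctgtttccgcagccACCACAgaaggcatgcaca
Gzmc: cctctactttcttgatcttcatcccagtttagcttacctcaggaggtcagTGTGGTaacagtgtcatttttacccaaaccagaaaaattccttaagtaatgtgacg

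Of the 12 genes named for the largest higher fold changes, those not yet described were leukocyte genes with 1 exception. Cd2 was at 12.4, 37.1 and 25.1 CPM against at most 0.242 CPM, Klrd1, a receptor of natural killer and T cells, at 13.6, 36.8 and 16.9 CPM against at most 0.246 CPM, and Trat1, an adaptor of the T cell receptor, at 49.6, 109 and 81.0 CPM against 0.134 to 1.09 CPM. P2ry10, a receptor of leukocytes, was at 31.1, 87.8 and 54.8 CPM against 0.295 to 0.614 CPM (6.98 ± 0.51 SE). The exception was Olfr523, annotated as an olfactory receptor, with 2.27, 14.3 and 3.81 CPM against at most 0.0805 CPM (7.56 ± 1.2 SE, adjusted p = 0.00374). Like the CD3 chains, these genes were highest in Sca-1+ tdT+ replicate 2.

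Genes shared by all leukocytes were higher in 13 of 19 tested members (median 3.98), and in all 19 without Sca-1neg tdT- replicate 2. Cytip was at 28.5, 47.2 and 34.9 CPM against 0.510 to 0.881 CPM (5.81 ± 0.35 SE, adjusted p = 0.000118), and Ikzf1, a lymphoid transcription factor, at 29.2, 48.8 and 47.7 CPM against 0.510 to 1.05 CPM (5.83 ± 0.38 SE, adjusted p = 0.000129). Ptprc, which encodes CD45, did not pass, at 141, 231 and 182 CPM against 2.54, 19.8 and 1.60 CPM (4.53 ± 1.16 SE, adjusted p = 0.0532). The single high value of that group was in the library with liver transcripts, as it was for Itgal, at 12.2 CPM there and 0.532 and 0.534 CPM in the other 2.

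The calls among myeloid genes turned on 1 library. Of 15 macrophage and monocyte genes, Cd68, Fcer1g and Cx3cr1 were higher and none was lower, whereas 14 were higher without Sca-1neg tdT- replicate 2 and the median went from 1.72 to 5.32. C1qa was at 2.11, 22.6 and 16.8 CPM against 0.205, 13.3 and 0.170 CPM, so that library alone overlapped the Sca-1+ tdT+ group. Among 12 tested genes of Langerhans cells, the dendritic cells of the epidermis, and of MHC class II, 6 were higher (median 2.12) and 7 of 14 tested without that library. Cd207, the Langerhans cell lectin, was at 10.5, 5.64 and 19.3 CPM against 1.47, 0.966 and 0.923 CPM (3.39 ± 0.52 SE, adjusted p = 0.0036), and the class II chain H2-Eb1 at 65.5, 46.1 and 72.2 CPM against 2.35 CPM at the lowest and 10.04 CPM at the highest (3.21 ± 0.51 SE). No library of the groups overlapped for these 2 genes.

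Bulge genes lay on the opposite side. Of 25 bulge stem cell genes tested, 24 were lower in Sca-1+ tdT+ and none was higher, with a median log2 fold change of -2.79. S100a4 missed the threshold at adjusted p = 0.072, and all 25 were lower without Sca-1neg tdT- replicate 2. Because Sca-1neg CD34+ cells are the usual bulge sort, the list also bears on that label. It is no independent check, since the lists were chosen with earlier results of these data known. The summed level was 5939, 5375 and 6776 CPM in Sca-1+ tdT+ against 23938, 21288 and 28092 CPM in Sca-1neg tdT-.

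Transcription factors of the bulge were among the lowest. Lhx2 was at 21.6, 43.3 and 28.9 CPM against 709, 673 and 739 CPM (-4.50 ± 0.28 SE, adjusted p = 0.000126), and Tbx1 at 19.8, 31.5 and 24.8 CPM against 543, 446 and 538 CPM (-4.33 ± 0.23 SE, adjusted p = 9.85e-05). Tcf7l1, a repressor at Wnt target genes, was at 3.05, 3.34 and 3.55 CPM against 62.7, 57.3 and 49.3 CPM (-4.09 ± 0.19 SE, adjusted p = 6.59e-05). Sox9 (-2.41 ± 0.25 SE), Nfatc1 (-1.60 ± 0.19 SE) and Hopx (-0.97 ± 0.22 SE) differed less. For each of these 6 factors the highest Sca-1+ tdT+ library stayed below the lowest Sca-1neg tdT- library.

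Structural and secreted bulge products followed. Krt15, the keratin that marks the bulge, was still abundant in Sca-1+ tdT+, with 4270, 3057 and 5098 CPM against 9197, 10023 and 11500 CPM (-1.31 ± 0.23 SE, adjusted p = 0.00648). Postn, a matrix protein, was at 503, 1089 and 337 CPM against 6374, 3679 and 7260 CPM (-3.17 ± 0.48 SE). Ltbp2, which binds microfibrils, was at 10.2, 5.58 and 6.68 CPM against 312, 186 and 313 CPM (-5.17 ± 0.33 SE, adjusted p = 0.000126). The bulge keratin Krt24, among the 12 lowest genes, was at 9.0, 15.6 and 6.58 CPM against 544, 566 and 675 CPM (-5.84 ± 0.36 SE, adjusted p = 0.000125).

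The other genes with the largest lower fold changes had few counts in Sca-1+ tdT+. Gfra2, a coreceptor for neurturin, was at 1.20, 0.518 and 0.209 CPM against 64.2, 39.5 and 64.1 CPM (-6.34 ± 0.58 SE, adjusted p = 0.000404). Scrg1 was at 0 to 0.107 CPM against 12.5, 16.1 and 12.5 CPM (-7.67 ± 0.65 SE), and Dpysl4, a cytosolic phosphoprotein of the collapsin response mediator family, at 0.0267 to 0.104 CPM against 4.87, 6.68 and 4.54 CPM (-6.45 ± 0.65 SE). The potassium channel gene Kcnd3 had 2 counts in all 3 Sca-1+ tdT+ libraries together and 3.89, 12 and 8.81 CPM in Sca-1neg tdT-. Aoc3, Rab17, Enho and Rasl12 were each at or below 0.230 CPM in Sca-1+ tdT+ and between 3.37 and 12.9 CPM in Sca-1neg tdT-.

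C1rl and Gulo, also among the 12, were highest in the library with liver transcripts. C1rl was at 18.4 CPM there and at 2.31 and 2.57 CPM in the other 2 Sca-1neg tdT- libraries, and Gulo at 92.7 CPM there and at 11.4 and 9.08 CPM. Without the library their log2 fold changes went from -6.12 to -4.44 and from -5.76 to -3.89 and still passed.

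Hedgehog signalling, which acts on the bulge and the hair germ through the receptor Ptch1 and the GLI transcription factors, had 8 of 13 genes tested lower and none higher (median -1.39). The transcription factor and target Gli1 was at 9.08, 19.8 and 8.20 CPM against 172, 121 and 202 CPM (-3.74 ± 0.39 SE, adjusted p = 0.000726); its gene overlaps Arhgap9 on the other strand, and the kit does not mark strand. Gli2 was at 8.20, 15.9 and 10.7 CPM against 123, 91.0 and 124 CPM (-3.29 ± 0.28 SE, adjusted p = 0.000278). Ptch1 was at 43.7, 52.5 and 46.1 CPM against 121, 94.6 and 158 CPM (-1.39 ± 0.20 SE). The coreceptors Gas1 (-2.67 ± 0.28 SE) and Boc (-1.91 ± 0.20 SE) were lower too.

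The transducer Smo did not pass, with 152, 119 and 108 CPM against 120, 125 and 131 CPM (0.01 ± 0.16 SE). The ligand Shh was at 0 to 1.39 CPM in all 6 libraries. Hhip, a surface inhibitor that is itself a target of the pathway, was at 0 to 0.614 CPM against 11.7, 5.56 and 16.3 CPM (-5.43 ± 1.09 SE, adjusted p = 0.0116). Sufu, the cytosolic inhibitor, was lower by a smaller step (-0.48 ± 0.14 SE, adjusted p = 0.0485) and did not pass without Sca-1neg tdT- replicate 2 (adjusted p = 0.0894).

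BMP signals keep bulge cells quiescent, and inhibitors of BMP release them. Of 35 genes of the BMP and TGF-beta pathway tested, 6 were higher and 17 lower (median -0.58). Among 8 ligands 2 were higher and 2 lower, among 7 receptors 3 were higher and none lower, and among the 20 inhibitors, binding proteins and effectors 1 was higher and 15 were lower. The calls in the higher direction lay mostly among ligands and receptors, and those in the lower direction mostly among inhibitors, binding proteins and effectors.

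Bmp4 was the ligand with the largest higher difference, at 57.0, 23.1 and 41.6 CPM against 3.69, 2.04 and 1.21 CPM (4.13 ± 0.51 SE, adjusted p = 0.00129). Bmp6, a bulge ligand, went the other way, with 3.69, 3.68 and 7.0 CPM against 39.0, 39.3 and 55.7 CPM (-3.22 ± 0.32 SE). Bmp2 did not pass, at 46.6 to 49.0 CPM against 27.3 to 39.0 CPM (adjusted p = 0.0811). Of the receptors, Bmpr1b was at 1.83 to 4.08 CPM against 0.107 to 0.266 CPM (4.14 ± 0.67 SE) and Tgfbr2 at 160, 171 and 249 CPM against 91.6 to 95.5 CPM (1.04 ± 0.19 SE), while the widely used Bmpr1a was at 135 to 156 CPM against 151 to 225 CPM and did not pass.

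Secreted BMP inhibitors were lower in Sca-1+ tdT+. Grem1 was at 17.2, 29.4 and 27.0 CPM against 525, 352 and 709 CPM (-4.43 ± 0.34 SE, adjusted p = 0.000205), and Nog at 2.19, 2.01 and 5.74 CPM against 44.1, 22.0 and 55.5 CPM (-3.62 ± 0.53 SE). The ID proteins, targets of BMP signalling that block other transcription factors, were lower as well. Id4 was at 12.2, 9.43 and 11.3 CPM against 146, 102 and 149 CPM (-3.59 ± 0.21 SE, adjusted p = 0.000109), and Id1, Id2 and Id3 differed by -2.01 ± 0.28, -2.52 ± 0.30 and -2.18 ± 0.21 (SE). Smad6, an inhibitory SMAD, was at 1.57 to 2.72 CPM against 19.0 to 23.5 CPM (-3.21 ± 0.30 SE), and Smad3, a TGF-beta effector, was the only higher member of these roles, at 74.4, 91.2 and 102 CPM against 32.4 to 45.4 CPM (1.24 ± 0.19 SE).

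In the Wnt pathway, which sets hair follicle cells to grow through frizzled receptors and TCF factors, 11 of 40 genes tested were higher and 17 lower (median -0.21). Of 10 ligands, 8 were higher and 1 was lower. Of 15 receptors and coreceptors, 2 were higher and 9 lower, and of 15 inhibitors and effectors, 1 was higher and 7 were lower.

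Among the ligands, Wnt3 was at 153, 125 and 148 CPM against 6.84, 1.42 and 2.33 CPM (5.32 ± 0.63 SE, adjusted p = 0.00226), and Wnt16 at 31.1, 32.7 and 36.3 CPM against 0.725 to 1.54 CPM (4.78 ± 0.33 SE, adjusted p = 0.000147). Wnt4 and Wnt10a, ligands of basal interfollicular cells, were at 194 to 243 CPM against 87.8 to 92.0 CPM (1.26 ± 0.14 SE) and at 129 to 157 CPM against 51.7 to 63.3 CPM (1.33 ± 0.15 SE). Wnt5b was the 1 lower ligand, at 2.72 to 3.92 CPM against 15.4 to 27.9 CPM (-2.65 ± 0.31 SE). Wnt3 and Wnt16 had the largest fitted differences of the 10 ligands, and Wnt6 was the one that did not pass.

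Among the receptors, Fzd2 was at 20.4, 24.6 and 19.5 CPM against 415, 336 and 369 CPM (-4.12 ± 0.18 SE, adjusted p = 6.59e-05), and Fzd10 was the higher frizzled, at 112, 65.2 and 89.9 CPM against 11.2, 5.75 and 4.37 CPM (3.64 ± 0.40 SE). Lgr5, an R-spondin receptor of follicle stem cells, was at 9.11, 19.3 and 7.83 CPM against 356, 220 and 385 CPM (-4.73 ± 0.42 SE, adjusted p = 0.000384). Lgr6, its relative of the upper follicle, did not pass, at 252, 164 and 218 CPM against 202, 155 and 268 CPM (0.02 ± 0.24 SE). Secreted inhibitors of the bulge were lower: Sfrp1 was at 111, 113 and 67.3 CPM against 1481, 1936 and 1665 CPM (-4.13 ± 0.26 SE) and Dkk3 at 22.6, 37.4 and 25.2 CPM against 549, 534 and 668 CPM (-4.36 ± 0.25 SE). Axin2, a common target of the pathway, was at 96.7, 59.2 and 98.6 CPM against 41.8, 33.0 and 40.1 CPM (1.15 ± 0.22 SE, adjusted p = 0.00934).

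**Figure D2:**
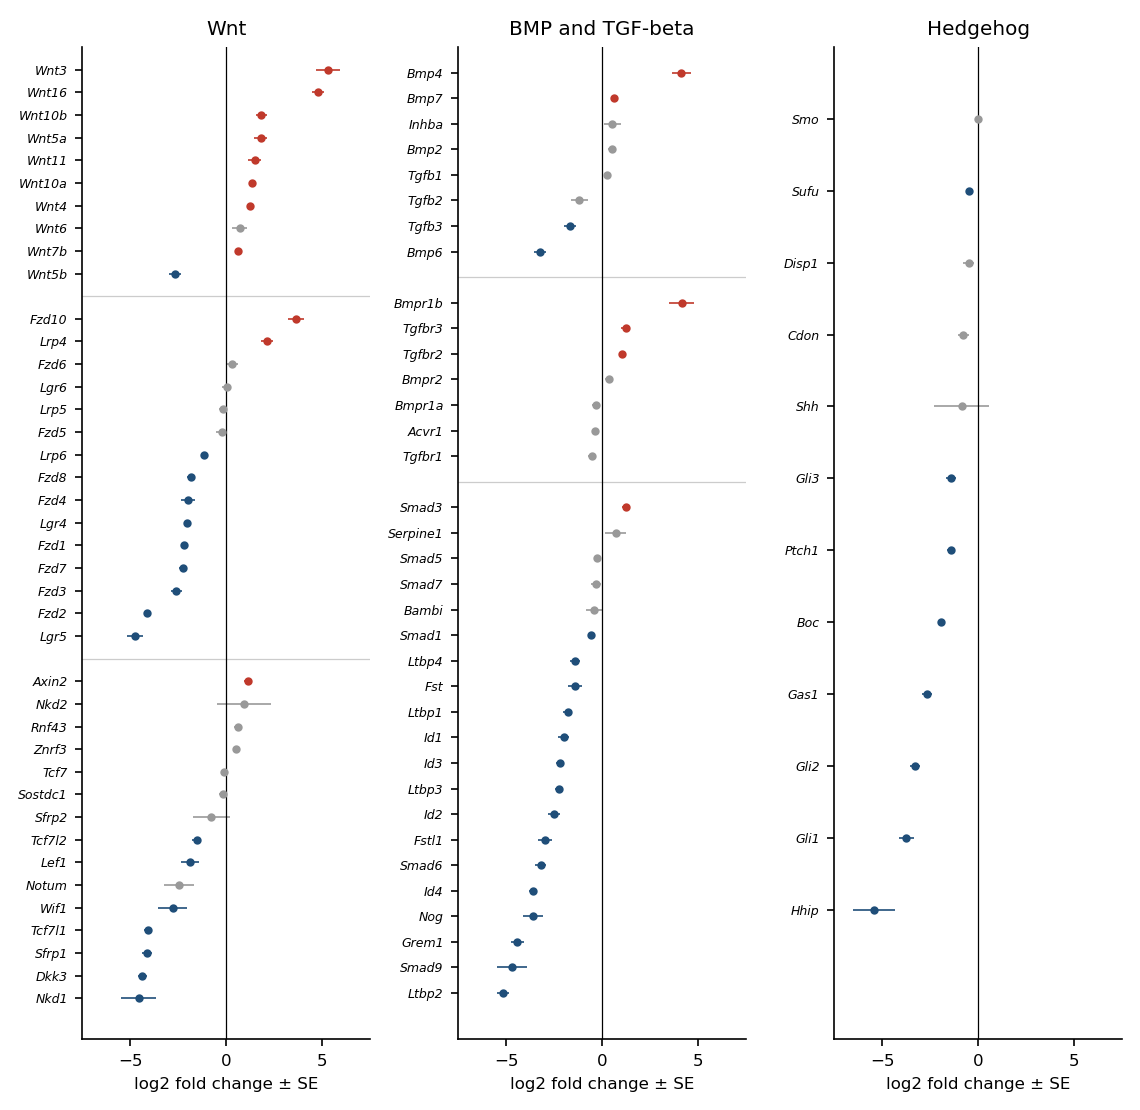
Log2 fold changes with SE bars, Sca-1+ tdT+ minus Sca-1neg tdT-, for tested genes of 3 pathways (1 of the 13 Hedgehog genes is not drawn); grey lines part ligands, receptors, and inhibitors and effectors in the first 2 panels. Red points are higher, blue points lower and grey points not past the threshold; 8 of 10 Wnt ligands lie on the higher side and 9 of 15 Wnt receptors on the lower side.

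Notch signalling, used in the switch of keratinocytes to differentiation, had 3 of 19 genes tested higher and 3 lower (median 0.08). Over all genes tested the shares were 9.38% higher and 10.8% lower. Notch3 was at 128, 92.3 and 123 CPM against 40.0, 33.5 and 22.8 CPM (1.84 ± 0.24 SE, adjusted p = 0.00166), and the ligand Dll1 at 107, 69.1 and 96.3 CPM against 31.2, 25.6 and 17.4 CPM (1.87 ± 0.26 SE, adjusted p = 0.00219). The glycosyltransferase Lfng, which tunes the receptors, was at 22.2, 25.7 and 31.3 CPM against 68.9, 82.2 and 87.8 CPM (-1.59 ± 0.18 SE). Notch1 and the ligand Jag1 did not pass, with differences of 0.60 ± 0.20 and -0.64 ± 0.25 (SE). The third higher gene, Nrarp, did not pass without Sca-1neg tdT- replicate 2 (adjusted p = 0.0717).

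In the insulin-like growth factor axis, 1 of 16 genes tested was higher and 5 were lower, beside 9.38% and 10.8% of all genes tested. The called genes were all binding proteins or a protease that cleaves them. Igfbp3 was the higher one, at 1124, 595 and 1367 CPM against 255, 183 and 240 CPM (2.19 ± 0.31 SE, adjusted p = 0.00263). Pappa, the protease, was at 13.3, 8.57 and 12.8 CPM against 65.8, 97.8 and 72.4 CPM (-2.76 ± 0.24 SE, adjusted p = 0.000326), and Igfbp4, which it cleaves, at 86.6 to 98.1 CPM against 323, 563 and 344 CPM (-2.17 ± 0.24 SE). Igfbp5, Igfbp6 and Igfbp7 were lower by fitted differences of -3.07, -2.53 and -2.69.

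The aryl hydrocarbon receptor, a ligand-activated transcription factor that epidermal T cells need for their upkeep and keratinocytes use against xenobiotics, was among the higher genes. Ahr was at 282, 199 and 310 CPM against 34.6, 37.0 and 29.0 CPM (2.98 ± 0.21 SE, adjusted p = 0.000156). Of the 9 axis genes tested, 4 were higher and 2 lower, beside 9.38% and 10.8% of all genes tested. Without Sca-1neg tdT- replicate 2, 1 axis gene was lower. The targets Tiparp and Ahrr, which dampen the receptor, were higher (0.95 ± 0.19 and 3.98 ± 0.69 SE), whereas the target Cyp1b1 was at 27.6, 28.6 and 39.2 CPM against 136, 85.0 and 128 CPM (-1.87 ± 0.23 SE, adjusted p = 0.00129).

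Hox genes, which carry body position, had 14 of 25 tested members lower and none higher (median -1.23). Hoxd8 was at 1.82, 2.24 and 0.940 CPM against 36.8, 28.8 and 44.7 CPM (-4.46 ± 0.37 SE, adjusted p = 0.000263). Hoxc13, a regulator of hair keratins, was at 5.29, 7.42 and 4.28 CPM against 34.5, 28.4 and 32.5 CPM (-2.49 ± 0.26 SE). Of the A cluster only Hoxa5 was lower among the members tested (-1.48 ± 0.24 SE), and Hoxa7 did not pass, at 56.5 to 73.7 CPM against 68.8 to 97.7 CPM. Neighbouring Hoxc genes overlap in the annotation, so Hoxc6 and Hoxc8 may share reads with Hoxc5.

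**Figure D3:**
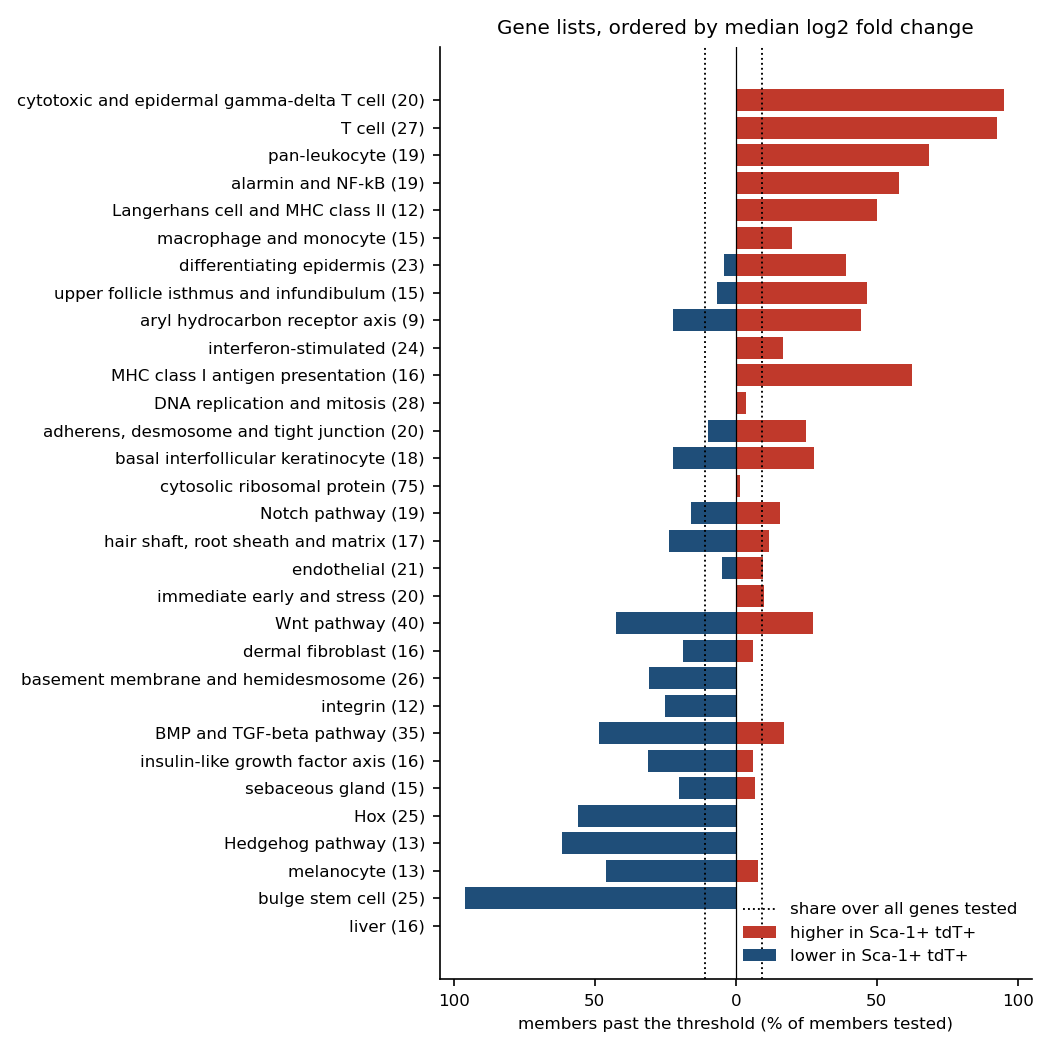
Bars give the percentage of tested members of each list that were higher (red, right) or lower (blue, left) in Sca-1+ tdT+, for lists with at least 9 members tested (number in brackets), in the order of their median log2 fold change. Dotted lines mark 9.38% and 10.8%, the shares over all genes tested; the T cell lists and the bulge list reach furthest from them.

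Keratinocyte genes outside the bulge were mixed. Of 18 genes of basal interfollicular keratinocytes tested, 5 were higher and 4 lower (median 0.34), beside 9.38% and 10.8% of all genes tested. Krt14, a keratin of basal cells, was at 11383, 14823 and 9415 CPM against 3822, 5089 and 3865 CPM (1.48 ± 0.23 SE, adjusted p = 0.00387), while its partner Krt5 did not pass at 13487 to 16251 CPM against 11482 to 12470 CPM (0.33 ± 0.17 SE). Ifngr1, the receptor chain for interferon gamma, was at 123, 111 and 154 CPM against 33.5, 27.7 and 27.1 CPM (2.13 ± 0.18 SE, adjusted p = 0.000262). The transcription factors Irx1 and Irx2 were lower, by -1.84 ± 0.17 and -0.91 ± 0.14 (SE). Both groups held these keratinocyte transcripts in all 6 libraries.

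Genes of differentiating epidermis were higher in 9 of 23 tested members and lower in 1 (median 1.59). Krt1, the keratin of the first suprabasal layer, was at 3290, 3115 and 3353 CPM against 366, 64.1 and 61.5 CPM (4.31 ± 0.82 SE, adjusted p = 0.0141), and Krt10 at 4737, 3245 and 5497 CPM against 768, 102 and 169 CPM (3.70 ± 0.83 SE). Sca-1neg tdT- replicate 1 was the highest of its group for both. Grhl3, a transcription factor of the epidermal barrier, was at 60.0, 61.9 and 69.3 CPM against 10.6, 3.49 and 4.20 CPM (3.38 ± 0.43 SE, adjusted p = 0.00151), and Krtdap at 329, 560 and 553 CPM against 103, 44.1 and 65.6 CPM (2.76 ± 0.35 SE). Lor, a late cornification gene, was at 3.63, 3.34 and 13.9 CPM against 40.8, 2.15 and 2.02 CPM and did not pass. Sprr1a of the same list was higher, at 156, 234 and 229 CPM against 68.6, 49.8 and 33.5 CPM (2.03 ± 0.29 SE, adjusted p = 0.00244). Calml3, a calmodulin-like protein, was lower, at 57.7, 119 and 80.3 CPM against 534, 567 and 847 CPM (-2.92 ± 0.32 SE).

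Genes of the upper follicle, the isthmus and infundibulum, were higher in 7 of 15 tested members and lower in 1 (median 1.01). Ly6d was at 849, 1335 and 910 CPM against 79.0, 53.3 and 66.5 CPM (3.96 ± 0.26 SE, adjusted p = 0.000129), and Krt79, a keratin of the infundibulum, at 1024, 1045 and 879 CPM against 355, 206 and 256 CPM (1.85 ± 0.23 SE, adjusted p = 0.00125). Plet1 and Lrig1, 2 isthmus markers, did not pass, with differences of 0.74 ± 0.29 and 0.04 ± 0.15 (SE). Krt17 was the lower member, at 923, 1162 and 1412 CPM against 2327, 3480 and 2698 CPM (-1.28 ± 0.23 SE). Of 15 sebaceous gland genes tested, 1 was higher, 0 without Sca-1neg tdT- replicate 2, and 3 were lower. Of 17 hair shaft and root sheath genes tested, 2 were higher and 4 lower. Over all genes tested the shares were 9.38% higher and 10.8% lower. Gata3, a factor of the inner root sheath and of T cells, was among the higher hair genes. It was at 538, 285 and 541 CPM against 153, 92.1 and 116 CPM (1.92 ± 0.30 SE).

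Of 26 genes of the basement membrane and hemidesmosome, which anchor basal cells, 8 were lower and none was higher (median -0.51). Col18a1 was at 229, 233 and 213 CPM against 1027, 1297 and 875 CPM (-2.24 ± 0.19 SE, adjusted p = 0.000278), and Hspg2, which encodes perlecan, at 110, 128 and 101 CPM against 434, 473 and 310 CPM (-1.85 ± 0.20 SE). Col4a1 and Col4a2, whose annotated spans overlap on opposite strands, differed by -2.88 ± 0.34 and -3.02 ± 0.36 (SE). Egfl6, a matrix protein that bulge cells deposit around the follicle, was at 5.40, 6.67 and 12.6 CPM against 69.9, 69.8 and 92.3 CPM (-3.24 ± 0.34 SE).

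The hemidesmosome genes Col17a1, Itgb4, Dst and Plec and the laminin chains Lama3 and Lamb3 did not pass, while Cd151, a tetraspanin of hemidesmosomes, was lower (-0.65 ± 0.14 SE). Col17a1 was at 7619, 4100 and 6100 CPM against 7336, 5642 and 6906 CPM (-0.16 ± 0.25 SE), and Itgb4 differed by 0.09 ± 0.20 (SE). Of the 12 integrin genes of a list without Itga6, Itga5, Itgb6 and Itgb8 were lower and none was higher, the largest difference being Itgb8, a chain of a receptor that activates TGF-beta, at 36.0, 53.6 and 32.1 CPM against 167, 95.3 and 147 CPM (-1.75 ± 0.27 SE). Cell junction genes were higher in 5 of 20 tested members, 3 without Sca-1neg tdT- replicate 2, and lower in 2. For these and the integrin list, the shares over all genes tested were 9.38% higher and 10.8% lower. The desmosomal plakophilin Pkp1 was at 2410, 2262 and 2259 CPM against 937, 942 and 740 CPM (1.40 ± 0.17 SE, adjusted p = 0.00117), whereas Ctnnb1, the gene of beta-catenin, was at 633, 731 and 636 CPM against 975, 1127 and 1080 CPM (-0.67 ± 0.15 SE, adjusted p = 0.0186).

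MHC class I presentation genes were higher in 10 of 16 tested members and lower in none (median 0.79). B2m, the shared light chain, was at 1980, 2389 and 1860 CPM against 989, 792 and 1097 CPM (1.11 ± 0.19 SE, adjusted p = 0.00573). Psmb8, an immunoproteasome subunit, was at 109, 108 and 85.9 CPM against 37.0, 36.6 and 28.3 CPM (1.57 ± 0.17 SE, adjusted p = 0.000768), and Nlrc5, the transactivator of class I genes, at 396, 225 and 283 CPM against 115, 87.1 and 68.4 CPM (1.74 ± 0.27 SE). Tap1 and Psmb9, which overlap on opposite strands, were higher by 1.17 ± 0.22 and 1.32 ± 0.18 (SE). Of interferon-stimulated genes, 4 of 24 tested were higher and none lower, with a median of 0.84. Among all genes tested, 9.38% were higher and 10.8% lower. Without Sca-1neg tdT- replicate 2, 9 interferon-stimulated genes were higher. Rtp4 was at 5.37, 7.42 and 7.94 CPM against 1.70, 1.72 and 1.17 CPM (2.17 ± 0.39 SE, adjusted p = 0.00664).

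Alarmins and genes of NF-kB regulation, the stress signals of epidermis and their brakes, were higher in 11 of 19 tested members and lower in none (median 2.53). Il33, an alarmin stored in nuclei, was at 248, 409 and 189 CPM against 17.0, 11.9 and 10.6 CPM (4.42 ± 0.35 SE, adjusted p = 0.000232). Il1rn, the receptor antagonist of interleukin 1, was at 127, 132 and 123 CPM against 12, 9.32 and 4.10 CPM (3.91 ± 0.37 SE, adjusted p = 0.000442), and Tnfaip3, which encodes the inhibitor A20, at 657, 513 and 786 CPM against 125, 63.9 and 72.5 CPM (2.90 ± 0.30 SE, adjusted p = 0.000638). For Il1rn and Tnfaip3 the lowest Sca-1+ tdT+ library was above 4 times the highest Sca-1neg tdT- library. The cytokine Tnf was at 7.24, 12.1 and 13.3 CPM against 0.267 to 0.676 CPM (4.53 ± 0.50 SE). Nfkb1 itself did not pass, at 257 to 298 CPM against 237 to 263 CPM. Leukocytes, whose summed transcripts were at 717, 1229 and 998 CPM against 32.9, 119 and 25.1 CPM for the 19 pan-leukocyte genes, also use many of these genes, and their part in this group was not tested.

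An NF-kB sequence, GGGA and TTTCC with 1 base of any kind between them, was looked for on either strand. It was found in the RefSeq windows of 3 of the 10 called alarmin members that have one. By window it was in 3 of their 14, beside 0.411% of all windows. It was picked after the counts were seen, and a match is a description only. Other NF-kB forms were looked at too. A palindrome was in 0 and a looser form in 7 of these 10 members. By window they were in 0 and 10 of the 14, beside 0.0304% and 18.4% of all windows. All 11 called members were higher, so the shared direction of the 3 genes shown follows from the choice. Each promoter has up to 50 bases on either side of the match and ends at the start where that is nearer. It is printed in the direction of the gene with the match in capitals. They are Il6 (chr5:30013020-30013113, plus strand), Cxcl2 (chr5:90903752-90903861, plus) and Nfkbia (chr12:55492648-55492726, minus). Nfkbia, the inhibitor of NF-kB, was at 634, 535 and 684 CPM against 387 to 429 CPM (0.62 ± 0.15 SE, adjusted p = 0.0277), Cxcl2, a neutrophil chemokine, at 5.85, 16.2 and 16 CPM against 0.558 to 2.58 CPM (2.81 ± 0.65 SE), and Il6 at 2.98 to 8.11 CPM against 0.594 to 0.995 CPM (2.76 ± 0.53 SE).
Il6: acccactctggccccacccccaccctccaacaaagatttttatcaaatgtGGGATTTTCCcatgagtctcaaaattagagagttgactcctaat
Cxcl2: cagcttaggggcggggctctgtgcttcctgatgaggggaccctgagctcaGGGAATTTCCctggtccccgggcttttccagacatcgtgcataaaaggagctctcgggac
Nfkbia: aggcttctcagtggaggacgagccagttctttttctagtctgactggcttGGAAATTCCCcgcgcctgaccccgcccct

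Markers of other cell types that the gate could hold were read next. Of 21 endothelial genes tested, 2 were higher and 1 was lower (median -0.04), where 9.38% and 10.8% of all genes tested were. Their summed level was 112, 211 and 239 CPM in Sca-1+ tdT+ against 71.3, 293 and 93.9 CPM. Without Sca-1neg tdT- replicate 2 the higher count was 6 and the lower count 0. Melanocyte genes were lower in 6 of 13 tested members and higher in 1. Mitf, a master regulator of melanocytes, was at 12.6, 9.09 and 9.82 CPM against 77.3, 41.1 and 96.9 CPM (-2.77 ± 0.33 SE, adjusted p = 0.00109), and Dct, an enzyme of melanin synthesis, at 2.00, 8.34 and 1.31 CPM against 35, 34.3 and 37.0 CPM (-3.21 ± 0.68 SE).

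Among 16 dermal fibroblast genes tested, 1 was higher and 3 were lower, beside 9.38% and 10.8% of all genes tested. The defining fibroblast gene Col1a1 was at 5.64, 72.1 and 3.19 CPM against 23, 57.2 and 18.3 CPM and did not pass, so Sca-1+ tdT+ replicate 2 stood apart from its group. Sparc, which keratinocytes also express, was at 66.8, 68.1 and 55.0 CPM against 448, 475 and 434 CPM (-2.84 ± 0.15 SE, adjusted p = 0.000102), and Vim, present in leukocytes as well, was higher (1.98 ± 0.42 SE). Of 16 liver genes tested none passed in edgeR or in DESeq2, nor at an unadjusted p of 0.05, and their median of -7.21 turned to 1.69 without Sca-1neg tdT- replicate 2. The 5 skeletal muscle genes tested also held no call by either tool or at that unadjusted p. Of 3 Merkel cell genes none passed in edgeR, 2 had an unadjusted p under 0.05, and DESeq2 called 1 lower. Krt18 was at 51.3 CPM in Sca-1neg tdT- replicate 2 and at 0.737 and 0.267 CPM in replicates 1 and 3. Krt8 was at 25.5 CPM there and at 2.21 and 2.65 CPM. Without replicate 2 their log2 fold changes went from -5.23 to -0.21 and from -4.36 to -2.34, and neither passed.

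Of 28 DNA replication and mitosis genes tested, Kif23 alone passed and was higher (0.96 ± 0.22 SE, adjusted p = 0.0178). The list median was 0.59, and 26 fitted differences were positive, beside 48.1% of those of all genes tested. Mki67, the proliferation marker, was at 235, 302 and 140 CPM against 144, 97.5 and 126 CPM and did not pass (0.88 ± 0.28 SE, adjusted p = 0.0665). Of the 7 mitochondrially encoded genes tested, 5 were lower and none was higher (median -1.13), among them mt-Cytb at 2651, 3098 and 3122 CPM against 6185, 5792 and 8713 CPM (-1.22 ± 0.21 SE, adjusted p = 0.00589). Cytosolic ribosomal protein genes were higher for Rps12 alone of 75 tested, with a median of 0.31, and it did not pass without Sca-1neg tdT- replicate 2. Immediate early genes, which dissociation can induce, were higher for Egr2 and Dusp1 of 20 tested, beside 9.38% of all genes tested. Dusp1 did not pass without that library (adjusted p = 0.112), where 1 gene of the list was higher and 1 lower. Fos was at 3733, 3127 and 2354 CPM against 3957, 3410 and 3783 CPM and did not pass.

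The remaining 2 sorted groups, 3 libraries of Sca-1neg tdT+ and 2 of Sca-1+ tdT-, were read beside the groups compared on the same scale. One library went against its label: Sca-1neg tdT+ replicate 2 held the tracer at only 2.05 CPM, as untraced cells do. It and replicate 1 of that group also held Alb, at 4485 and 9845 CPM. Cd34 was at 481, 751 and 860 CPM in Sca-1neg tdT+ and at 322 and 388 CPM in Sca-1+ tdT-, so Sca-1+ tdT+ was the lowest of the 4 groups. Cd8a was at 1.49, 0.711 and 4.56 CPM and at 2.2 and 0 CPM in these groups, Cd3e at 3.59, 8.04 and 6.53 CPM and at 9.86 and 12.8 CPM, and Trdc at 4.67, 9.35 and 13.6 CPM and at 20.1 and 18.3 CPM. For each of these T cell genes, every library of the other groups was below every Sca-1+ tdT+ library.

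**Figure D4:**
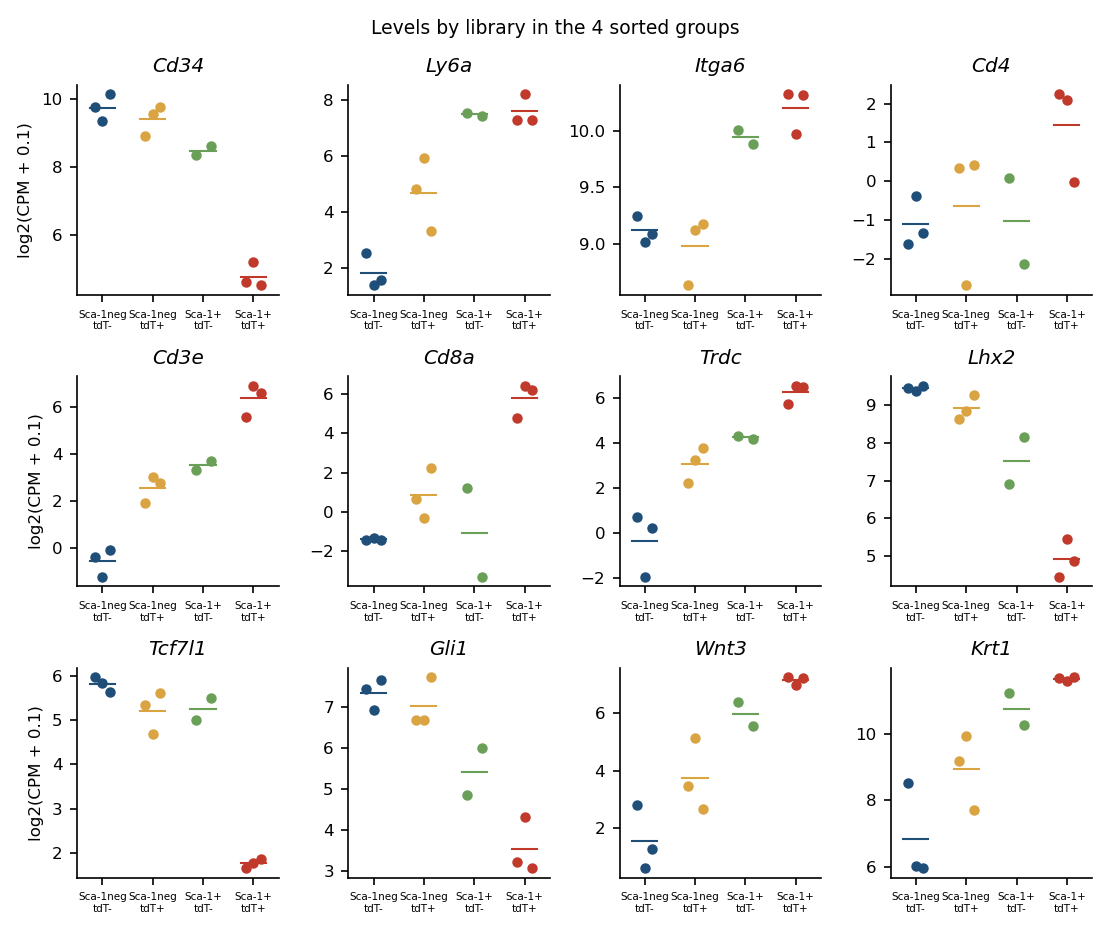
Levels of 12 genes as log2(CPM + 0.1) on the y axis, with an axis range of its own per gene, in the 11 libraries of the 4 sorted groups; points are libraries and lines group means on this scale. Cd3e and Cd8a are highest and Cd34 and Tcf7l1 lowest in the 3 Sca-1+ tdT+ libraries, while Ly6a is also high in the 2 Sca-1+ tdT- libraries.

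Bulge genes differed in where the other 2 groups lay. The summed bulge list was at 15274, 19880 and 24020 CPM in Sca-1neg tdT+, with replicate 3 inside the range of Sca-1neg tdT-. In Sca-1+ tdT- it was at 6974 and 9618 CPM. Lhx2 was at 398, 461 and 625 CPM in Sca-1neg tdT+ and at 121 and 284 CPM in Sca-1+ tdT-, between 709 CPM, its median in Sca-1neg tdT-, and the 21.6 to 43.3 CPM of Sca-1+ tdT+. Tcf7l1 stayed at 25.5 to 48.5 CPM in Sca-1neg tdT+ and at 31.8 and 45.4 CPM in Sca-1+ tdT-, so it was low only in the 3 Sca-1+ tdT+ libraries, at 3.05 to 3.55 CPM. Hoxd8 was at 29.3 to 34.9 CPM in Sca-1neg tdT+, inside the range of Sca-1neg tdT-, and at 23.4 and 25.6 CPM in Sca-1+ tdT-, below it. Ahr was graded, with 90.9 to 108 CPM in Sca-1neg tdT+ and, in Sca-1+ tdT-, 175 and 127 CPM, and Il33 was at 200 and 167 CPM in Sca-1+ tdT-, inside or just below the range of Sca-1+ tdT+. The endothelial genes summed to 7102 and 7740 CPM in Sca-1+ tdT-, above the 112 to 239 CPM of Sca-1+ tdT+.

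**Figure D5:**
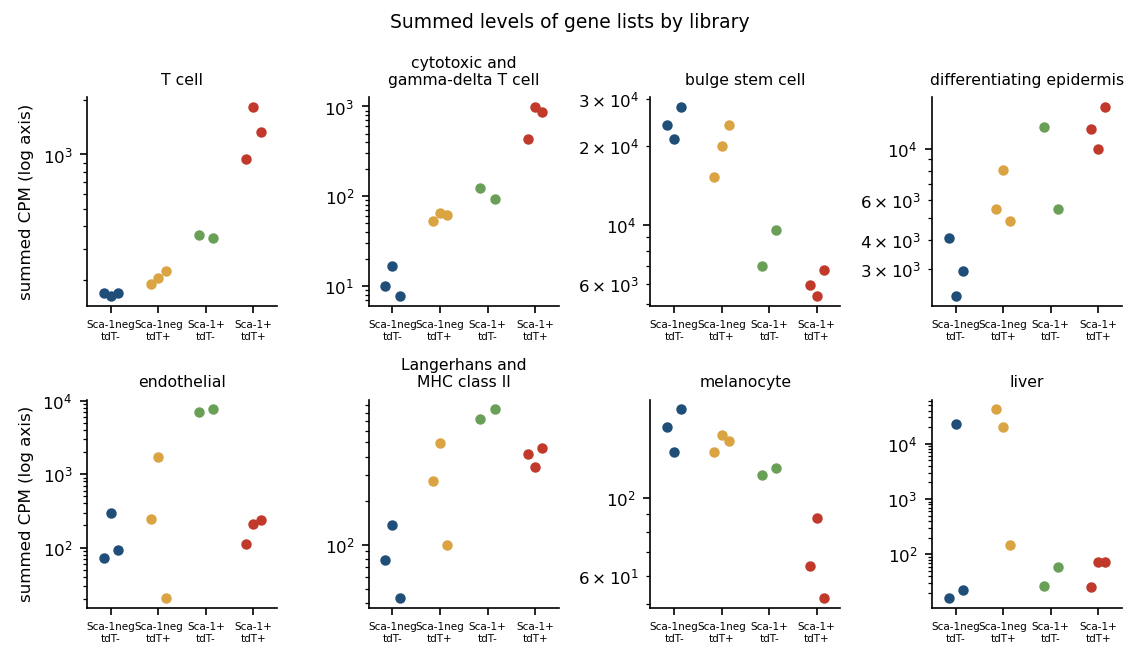
Summed CPM of 8 gene lists (log axis, range set per list) in each of the 11 libraries of the 4 sorted groups. T cell and cytotoxic genes are highest in the 3 Sca-1+ tdT+ libraries, and endothelial genes in the 2 Sca-1+ tdT- libraries. Most of the T cell sum in Sca-1neg tdT- is Bcl11b. Liver genes stand out in 3 Sca-1neg libraries, of which 1, at 23216 CPM, is in the comparison.

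In a fit of all 11 libraries with 4 group means, 3306 of 20307 genes differed between Sca-1+ tdT+ and Sca-1neg tdT-. The single steps in that fit gave 13 genes for tdT within Sca-1neg, 1166 for Sca-1 within tdT-, 2572 for Sca-1 within tdT+ and 556 for tdT within Sca-1+. These steps share libraries with one another and with the full comparison, so their counts are set side by side only. In Sca-1neg tdT+, replicate 2 held the tracer at 2.05 CPM, and replicates 1 and 2 held Alb at 9845 and 4485 CPM. Sca-1+ tdT- had only replicates 1 and 2. How far this set the step counts was not tested. A low count is no sign that tdT makes no difference.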

How the data were processed

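RNA of sorted epidermal cells was sequenced from TruSeq RNA v2 libraries, a kit that does not mark strand. The deposited values are raw read counts per gene; the submitters' processing notes name bcl2fastq 2.20.0.422, FastQC, STAR, featureCounts, DESeq2 1.18.1 and mm10. Not given in the sources used here: the annotation release, strand setting and treatment of multi-mapping reads. Hence counts of overlapping and ribosomal protein genes are uncertain. All 55536 gene IDs matched a GENCODE symbol, and 1 further entry is the tracer, kept out of library sizes and tests.

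The 6 libraries were fitted with edgeR 4.0.16 (R 4.3.3, limma 3.58.1): filterByExpr, TMM scaling, robust quasi-likelihood test, Benjamini-Hochberg adjustment over all 17818 genes tested, threshold 0.05. The SE is approximate, the size of the log2 fold change over the root of F. CPM of all 11 libraries are on the TMM scale of the 6, in place of the planned scaling over 11. The tracer is in CPM of the unscaled total, with intervals for counting error only. Simulated counts for this comparison covered 17818 genes, of which 200 were changed. There edgeR recovered 64% of 100 genes changed 4-fold and 13% of 100 changed 2-fold, with 7 false calls. The data held 3593 calls, so these rates need not hold for them. Alternatives were DESeq2 1.42.0, other scalings, filters and sample sets, a replicate block, age as a factor and each library left out.

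Named genes are up to 12 per direction with the largest fold change (5 CPM or more on average in the higher group, no overlap between groups, no predicted genes, non-coding RNAs or receptor segments), the sort markers and Cd4, and up to 5 called members with the lowest p per list; further members were chosen after their values were seen. The members and lists were chosen with earlier results of these data known. Some genes are not reported here. Promoter windows are from RefSeq GRCm38.p6.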

Additional observations from a re-analysis of the deposited data

How the results depend on the processing

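Beside the 3593 genes past the threshold, DESeq2 called 4816 (2296 higher, 2520 lower; 3578 of them shared), edgeR without a filter on low counts 3077 (2908 shared) and library size alone 3435 (3384 shared). The 32-week libraries alone gave 1089 (569 higher, 520 lower), and a test for a log2 change of at least 1 gave 1358 (668 higher, 690 lower). Leaving out 1 library at a time gave 2067 to 3328 genes, 962 to 1590 higher and 1105 to 1782 lower; the counts moved most without Sca-1neg tdT- replicates 1 and 3 and, for higher genes, without Sca-1+ tdT+ replicate 1 (1111). None of the called genes changed sign under the alternatives run. The cause of these moves was not tested, beyond fewer libraries in the fit. With the replicate block 3362 genes passed (1609 higher, 1753 lower); same-numbered libraries correlated at 0.32, 0.14 and -0.06 in their deviations from the group means, and not every library correlated best with its own number. The labels tie the numbers to age but not to shared animals or days, so they were not taken as pairs. Of 162 named genes past the threshold, 89 stayed past it under every alternative they could be computed for. Without Sca-1neg tdT- replicate 2, 8 were lost, among them Acsbg1, Alas2, Cldn5, Cnn1, Dusp1, Nrarp and Rps12. Without the filter the median log2 fold change of all genes moved from -0.03 to -0.46. Scaled by TMM, the tracer was at 154 in place of 133 CPM in Sca-1neg tdT+ replicate 1, and at 249 and 320 in place of 254 and 307 in Sca-1+ tdT+ replicates 1 and 3. Depth limits genes with few counts in a group, such as Kcnd3, for which no fold is given.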
